A study of Mus musculus with 2 samples.

Results

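The mitochondrial chaperones and proteases described here were 10 nuclear genes, Hspd1, Hspe1, Hspa9, Dnaja3, Trap1, Lonp1, Clpp, Clpx, Afg3l2 and Spg7, each found once by its symbol among the 27179 genes of the count tables. They were measured by poly-A RNA sequencing of interscapular brown adipose tissue (iBAT), the fat depot between the shoulder blades that produces heat. The tissue came from untreated 20-day-old C57BL/6N (Bl6N) mice described as male. Counts of Y-linked genes and of Xist, given below, differed between the libraries and are at odds with all-male pools. A wild-type library was compared with a Ucp1 knockout (Δ/Δ, here Ucp1-KO) library, and each of the 2 libraries held tissue pooled from 3 animals. With 1 library per genotype there were no replicates, so no p-value or SD is given, and every interval below is a 95% interval that covers counting error only and not differences between animals.

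All of these proteins are made in the cytosol, imported and then work in the mitochondrial matrix or inner membrane. Chaperones pull incoming chains across the membrane and fold them, while ATP-driven proteases remove proteins that are damaged, unassembled or no longer needed. In cells under mitochondrial stress, transcripts of several of these genes are known to increase together, and brown fat is rich in mitochondria, where Ucp1 makes the inner membrane leak protons so that respiration yields heat.

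None of the 10 genes differed by 1.5-fold or more between the libraries. Relative to the median gene, 9 were slightly higher in the Ucp1-KO library and Hspe1, the partner of Hspd1, was lower, while with total counts as the scale all but Lonp1 were lower. Among the 9, the interval of Clpp included 0. Of all genes examined, 49.9% were likewise higher on the first scale, as were 59.7% of those at least as abundant as the least abundant member. On the first scale the widest differences were those of the protease Lonp1, at 129% of its wild-type level, of Clpx, at 123%, and of Hspe1, at 82.9%, whereas with total counts Hspe1 was widest (log2 ratio -0.58) and Lonp1 (0.06) and Clpx (-0.01) were nearest to 0. Ucp1 itself, the targeted gene, went from 366473 counts (wild-type) to 37853 (Ucp1-KO), which is 12.7% of the wild-type level after normalization (log2 ratio -2.98, interval -3.00 to -2.95).

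The libraries had nearly equal totals, at 52950913 counts (wild-type) and 53216727 counts (Ucp1-KO), whereas median-of-ratios size factors, which follow the depth of the median gene, were 1.11 and 0.901. All 15 brown adipocyte markers examined were present in both libraries (1.92% of counts in wild-type, 1.33% in Ucp1-KO). Without Ucp1 the other 14 summed to 1.23% and 1.26%, and 10 of them were higher in Ucp1-KO (median log2 ratio 0.37, and 0.07 with total counts). Transcripts encoded in the mitochondrial genome took 22.4% of wild-type counts and 36.7% of Ucp1-KO counts. All 22 skeletal muscle markers were lower in Ucp1-KO (summed 0.690% and 0.0902% of counts, none at 0), and so were 11 of 12 endothelial markers (0.266% and 0.133%, none at 0) and 10 of 11 fibroblast and preadipocyte markers (0.205% and 0.149%). Macrophage markers summed to 0.0168% and 0.0167% but were uneven, with 5 of 14 at least 1.5-fold higher in Ucp1-KO and none 1.5-fold lower (4 and 2 with total counts). Of all genes examined, 15.4% were 1.5-fold higher and 17.9% lower on the median-of-ratios scale. T and B cell markers summed to 0.000602% and 0.000419%, with Cd3d and Pax5 at 0 in Ucp1-KO. Although the mice are described as male, 4 Y-linked genes summed to 0 counts for the wild-type pool and 5305 for the Ucp1-KO pool, and Xist, the X-inactivation transcript of female cells, had 32380 and 16478 counts. The part of the cell makeup, the mitochondrial share or the sex of the pooled mice in the results below was not tested, and in bulk tissue fewer cells of a type and less RNA per cell cannot be told apart.

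Hspd1 and Hspe1 lie head to head on chromosome 1 and share the short stretch between their transcript starts, which is shown because they were the members whose transcripts differed most from their partner's. Lonp1 and Clpx are shown because they had the highest log2 ratios. The sequences are the reference sequence of GRCm39 next to the transcript starts. Capitals mark a heat shock element in the stretch shared by Hspd1 and Hspe1 (alternating TTC and GAA units parted by 2 bases, plus strand, chr1:55127184-55127290), an E-box CACGTG upstream of Lonp1 (minus strand, chr17:56933932-56933991) and the NRF1 core CGCANGCG upstream of Clpx (plus strand, chr9:65201442-65201541).
Hspd1-Hspe1: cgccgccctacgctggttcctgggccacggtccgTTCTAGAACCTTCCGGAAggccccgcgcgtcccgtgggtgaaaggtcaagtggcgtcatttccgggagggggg
Lonp1: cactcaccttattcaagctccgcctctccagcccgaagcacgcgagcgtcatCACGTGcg
Clpx: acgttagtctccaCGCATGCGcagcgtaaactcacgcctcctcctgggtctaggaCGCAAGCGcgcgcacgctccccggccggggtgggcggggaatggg

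Motifs were counted on both strands in RefSeq promoter windows of 300 bases (250 before and 50 after the start, GRCm38.p6), of which 9 belonged to 8 members. A run of at least 3 heat shock units was present in the windows of Hspd1 and Hspe1, which overlap, and in 0.603% of all 32851 windows. The NRF1 core was present in windows of Hspd1, Dnaja3, Clpx and Spg7, against 8.21% of all windows. The E-box was present for Hspd1 and Lonp1 (7.15% of all windows), the ETS motif CCGGAAG for Hspd1, Hspe1, Dnaja3 and Clpp (8.86%), and the cyclic AMP element TGACGTCA for Trap1 (1.79%). No member window held TGATGNAA, the composite element read by Atf4 and its partners (3.97% of all windows). The heat shock run contains GAANNTTC or TTCNNGAA units, which alone occur in 7.86% and 8.52% of windows, and its last bases overlap the ETS motif. These matches describe letters in the windows and are not measurements of binding.

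Normalized read counts are the deposited counts divided by median-of-ratios size factors, which centre the 2 libraries on the median gene. A log2 ratio is Ucp1-KO over wild-type on that scale, and 15212 genes with a mean normalized count of at least 10 were examined. With total counts as the scale instead, every log2 ratio dropped by about 0.31, since the median of all genes was then -0.31. A member with a log2 ratio between 0 and 0.31 is therefore higher than the median gene but has a smaller share of the whole library in Ucp1-KO.

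Relative to the median gene, the folding chaperones of 1 matrix machine came out in opposite directions, while with total counts both were lower. Hspd1 encodes Hsp60, the barrel in which matrix proteins fold, and Hspe1 encodes Hsp10, the lid of that barrel. Hspd1 had 35779 wild-type and 38627 Ucp1-KO normalized counts (log2 ratio 0.11, interval 0.08 to 0.14, and -0.20 with total counts). Hspe1 had 9304 wild-type and 7713 Ucp1-KO normalized counts (log2 ratio -0.27, interval -0.33 to -0.21, and -0.58 with total counts). Hspe1 was thus the only member with its whole interval below 0, and it was lower under both scalings.

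Hspa9 encodes mortalin, the mitochondrial Hsp70 that drives import and early folding, and was the most abundant member. Its normalized count was 66252 in wild-type and 73592 in Ucp1-KO (log2 ratio 0.15, interval 0.13 to 0.17, and -0.16 with total counts). Dnaja3 encodes Tid1, a J-domain protein that stimulates the ATPase of mortalin. It had 12374 wild-type and 13086 Ucp1-KO normalized counts (log2 ratio 0.08, interval 0.03 to 0.13, and -0.23 with total counts). Trap1 encodes the Hsp90 of mitochondria. Its normalized count was 8138 in wild-type and 9216 in Ucp1-KO (log2 ratio 0.18, interval 0.12 to 0.24, and -0.13 with total counts). These 3 genes were a little higher relative to the median gene, each with its interval above 0, and each was lower as a share of the library.

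The proteases of the matrix included the 2 highest log2 ratios, an order that a change of scaling cannot alter. Lonp1 encodes Lon, which degrades oxidized and unfolded matrix proteins, and had 6745 wild-type and 8677 Ucp1-KO normalized counts. Its log2 ratio was 0.36 (interval 0.30 to 0.43), and at 0.06 it was the only member above 0 with total counts. Clpx, the unfolding subunit that feeds proteins into the ClpP chamber, had 8558 and 10500 normalized counts (log2 ratio 0.29, interval 0.24 to 0.35, and -0.01 with total counts). Clpp, the proteolytic chamber itself, had 2856 and 3012 normalized counts, and its log2 ratio of 0.08 had an interval that included 0 (-0.03 to 0.18, and -0.23 with total counts). Clpp had the fewest counts of the members and the widest interval.

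The remaining proteases, Afg3l2 and Spg7, encode subunits of the m-AAA protease, which clears the inner membrane and matures some of its proteins. Afg3l2 had 14133 wild-type and 16446 Ucp1-KO normalized counts, or 116% of wild-type (log2 ratio 0.22, interval 0.17 to 0.26, and -0.09 with total counts). Spg7, which encodes paraplegin, had 3975 and 4337 normalized counts (log2 ratio 0.13, interval 0.04 to 0.21, and -0.18 with total counts). Both were above the median gene and below their wild-type share of the library.

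**Figure D1:**
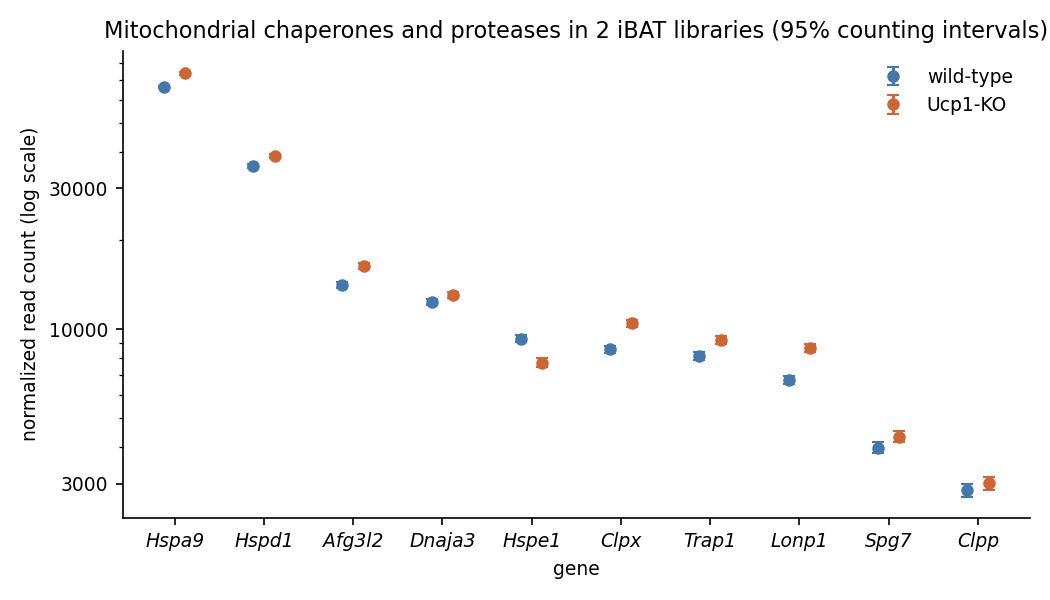
Normalized read count (log axis) of each of the 10 genes in the wild-type and Ucp1-KO libraries, 1 point per library, with bars for the 95% counting interval. Hspa9 is highest, at 66252 and 73592, and only Hspe1 lies lower in Ucp1-KO on this scale (with total counts all but Lonp1 do).

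In counts, 8 of the 10 log2 ratios had an interval above 0 and 1 (Hspe1) below 0. Of all genes examined, 31.5% had an interval above 0 and 30.5% below. Well-counted genes have narrow intervals, so the members were also set beside the 2737 genes with at least the mean count of Clpp, of which 51.7% lay above and 33.8% below. By size, 0 of 10 members were 1.5-fold higher and 0 were 1.5-fold lower, against 15.4% and 17.9% of all genes examined and 10.4% and 7.96% of those abundant genes. Likewise 0 members passed 2-fold in either direction, against 7.42% of all genes higher and 9.55% lower. The median log2 ratio was 0.14 over the members, 0.11 over the chaperones and 0.22 over the proteases, with -0.0016 over all genes and 0.09 over the abundant ones. With total counts the member median was -0.17 and that of all genes -0.31. The gap of 0.14 to the median gene is the same under both scalings because a scaling moves all genes alike. Against the median of the abundant genes the gap was 0.05. The range of members, up to 0.36 in size, is one within which 64.2% of those abundant genes also lay.

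**Figure D2:**
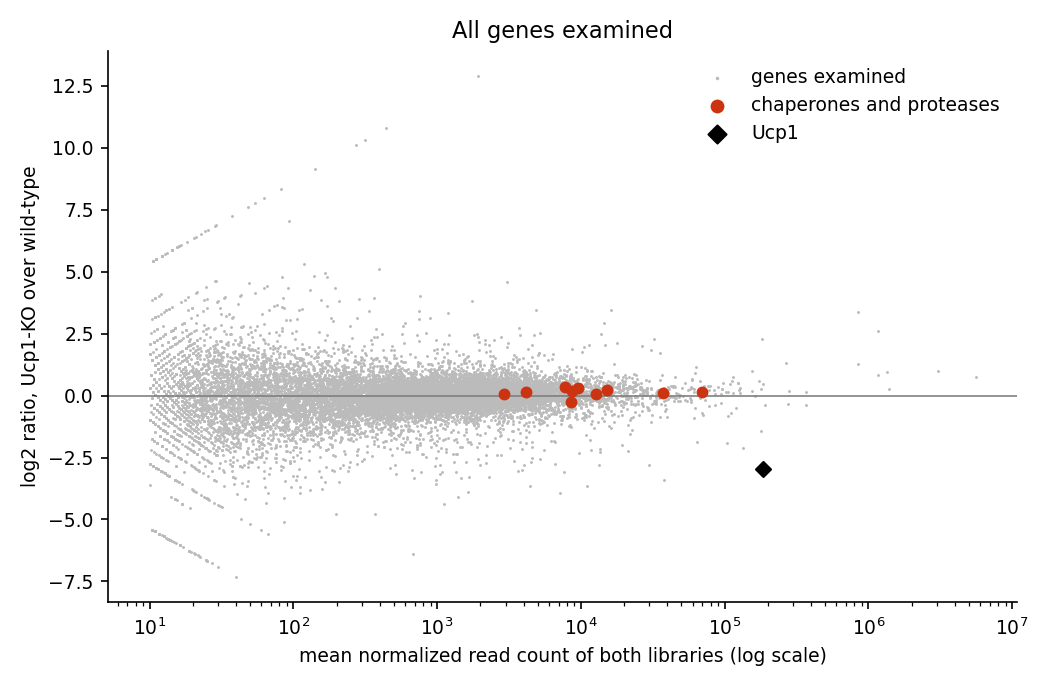
Log2 ratio of Ucp1-KO over wild-type (median-of-ratios scaling) against the mean normalized read count of both libraries (log axis), 1 point per gene examined, with the 10 members and Ucp1 marked. The members lie among abundant genes, between -0.27 and 0.36 (with total counts, between -0.58 and 0.06).

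**Figure D3:**
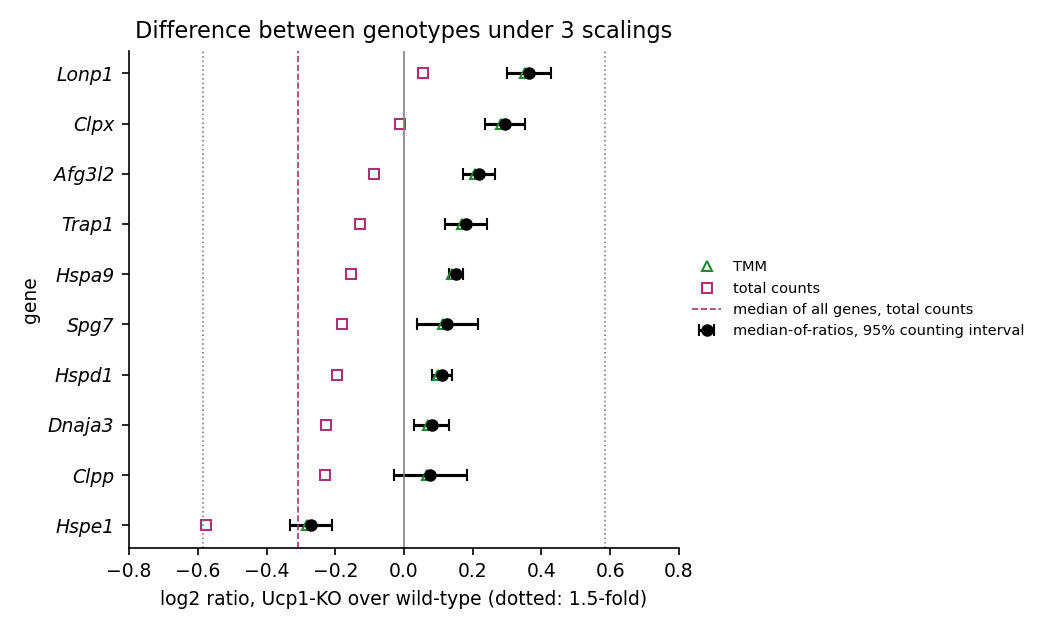
Log2 ratio of each member with its 95% counting interval, under median-of-ratios scaling and under total counts. Total counts move every member down by about 0.31, which leaves Lonp1 as the only member above 0 (0.06).

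Most steps in the order of the log2 ratios were within counting error. The genes were sorted on these same ratios, so adjacent genes are close by construction. The count of such steps therefore does not show that the members were alike. Of the 9 neighbouring pairs from Hspe1 up to Lonp1, 7 had an interval of the difference that included 0. The exceptions were Clpp over Hspe1 (difference 0.35, interval 0.23 to 0.47) and Clpx over Afg3l2 (0.08, interval 0.0023 to 0.15). Against Hspa9, which lies inside the order, the highest gene Lonp1 differed by 0.21 (interval 0.14 to 0.28) and the lowest gene Hspe1 by -0.42 (interval -0.49 to -0.36).

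Levels were compared between genes per kilobase of canonical transcript, scaled to a sum of 1000000 over the genes with a length. On that scale Hspa9 was at 1309 in wild-type and 1229 in Ucp1-KO, Hspd1 at 988 and 903, and Hspe1 at 805 and 564. Dnaja3 (326 and 292) and Afg3l2 (301 and 296) came next, followed by Trap1 (232 and 223), Lonp1 (150 and 164), Clpx (132 and 137), Clpp (128 and 114) and Spg7 (65.3 and 60.3). The sum of 1000000 is a further scaling between libraries, so directions between genotypes can differ here from those above. Hspa9 was lower in Ucp1-KO per length, but its log2 ratio was 0.15 with median-of-ratios scaling. Clpx was higher per length but at -0.01 with total counts. Hspa9 ranked 101 in wild-type and 97 in Ucp1-KO among the 25088 genes with a length, whereas Hspe1 moved from rank 182 to 226 and Lonp1 from 1034 to 850. With the length of all annotated exons in place of the canonical transcript, the first 3 genes, Clpx in place 8 and the last gene kept their places in wild-type and the other 5 did not.

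Ratios within a library do not depend on how the libraries are scaled. The count ratio of barrel to lid, Hspd1 to Hspe1, was 3.85 in wild-type and 5.01 in Ucp1-KO, or 1.23 and 1.60 per length. This is a log2 change of 0.38 (interval 0.31 to 0.45), the widest among the 4 partner pairs. Clpp to Clpx went from 0.334 to 0.287 (log2 change -0.22, interval -0.34 to -0.10), so the chamber was lower relative to its unfoldase. Hspa9 to Dnaja3 went from 5.35 to 5.62 (0.07, interval 0.02 to 0.13), a small shift. Afg3l2 to Spg7 went from 3.56 to 3.79, with an interval that included 0 (0.09, interval -0.01 to 0.19). Across the matrix proteases, Lonp1 was higher relative to Clpp by 0.29 (interval 0.16 to 0.41).

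The share of each gene in the summed counts of the 10 members shows the same rearrangement without any scaling. Hspe1 made up 5.53% of wild-type and 4.16% of Ucp1-KO member counts. Lonp1 made up 4.01% and 4.69%, and Clpx 5.09% and 5.67%. Hspa9, the main contributor, held 39.4% and 39.7%, close to constant. The 5 proteases together were higher relative to the 5 chaperones by 0.14 on the log2 scale (interval 0.10 to 0.17).

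As a whole the members made up 0.352% of wild-type counts and 0.314% of Ucp1-KO counts. A reference list of 14 nuclear genes for abundant mitochondrial proteins, among them citrate synthase (Cs), was higher in Ucp1-KO by a median log2 ratio of 0.31 (0.0029 with total counts). Relative to the summed counts of that list, the summed members were lower by a log2 change of -0.20 (interval -0.22 to -0.19). The chaperones differed by -0.23 and the proteases by -0.10 (interval -0.13 to -0.07). The reference list was itself uneven, from Vdac1, the outer membrane channel, at -0.20 (interval -0.25 to -0.16) to Etfb, an electron transfer subunit, at 0.59.

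**Figure D4:**
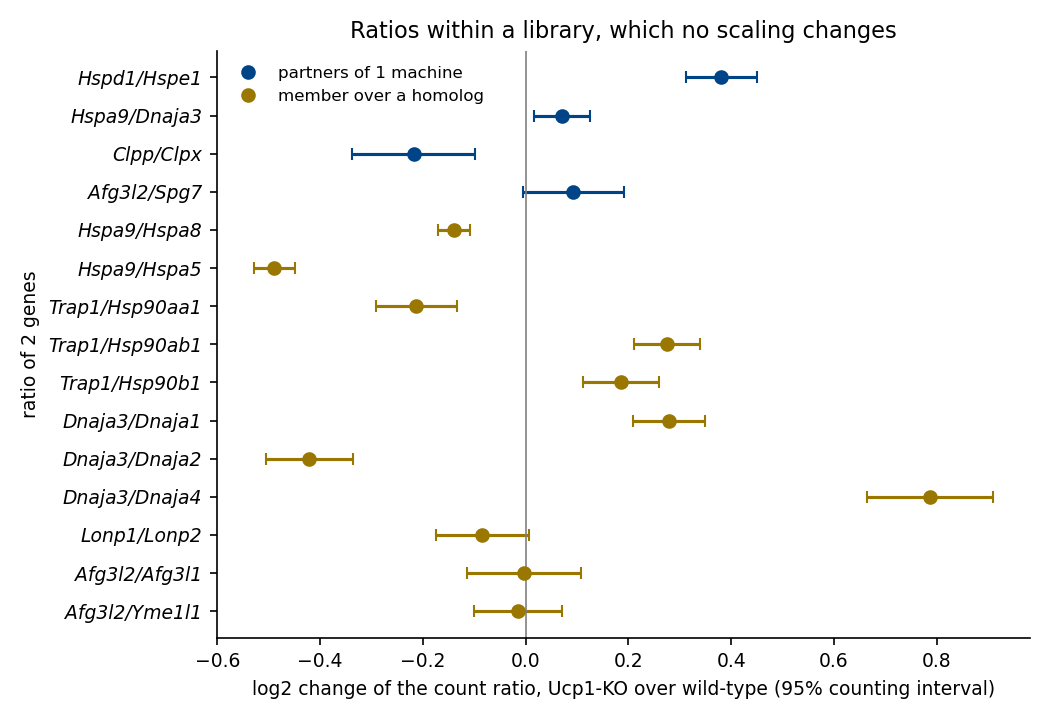
Log2 change, Ucp1-KO over wild-type, of the count ratio of 2 genes within a library, with its 95% counting interval, for 4 partner pairs and for members over homologs. Hspd1 over Hspe1 shifted by 0.38 and Hspa9 over Hspa5 by -0.49, while the interval of Afg3l2 over Spg7 includes 0.

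Several members have homologs in the cytosol, the endoplasmic reticulum or the peroxisome, and Afg3l2 has homologs within mitochondria. Ratios of a member to its homolog can be compared within 1 library. Of 11 such ratios, 4 were lower and 4 higher in Ucp1-KO with an interval off 0, and 3 had an interval that included 0. Hspa9 was lower relative to Hspa5, the Hsp70 of the endoplasmic reticulum (-0.49, interval -0.53 to -0.45), and relative to cytosolic Hspa8 (-0.14, interval -0.17 to -0.11). The counts of Hspa5 itself were 24622 (wild-type) and 31184 (Ucp1-KO). Trap1 was lower relative to the cytosolic Hsp90 gene Hsp90aa1 (-0.21, interval -0.29 to -0.13) but higher relative to Hsp90ab1 (0.28, interval 0.21 to 0.34) and to Hsp90b1 of the endoplasmic reticulum (0.19, interval 0.11 to 0.26). No single direction held for the J-domain genes either, since Dnaja3 was higher relative to Dnaja1 (0.28, interval 0.21 to 0.35) and Dnaja4 (0.79, interval 0.66 to 0.91) and lower relative to Dnaja2 (-0.42, interval -0.51 to -0.34). The protease ratios moved little. Lonp1 over the peroxisomal Lonp2 shifted by -0.08 (interval -0.18 to 0.01), and Afg3l2 over its paralog Afg3l1 by -0.0033 (interval -0.12 to 0.11). Afg3l2 over Yme1l1, the protease facing the intermembrane space, shifted by -0.01 (interval -0.10 to 0.07).

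The co-chaperones of mortalin included Grpel2 and Hscb, whose log2 ratios were larger in size than that of any member on the median-of-ratios scale but not with total counts. All 6 genes of the mtHsp70 list, Hspa9 and Dnaja3 included, were above 0, with a median log2 ratio of 0.12 (-0.19 with total counts), and 2 were 1.5-fold higher (0 with total counts). Of all genes examined, 49.9% were above 0 and 15.4% were 1.5-fold higher on the median-of-ratios scale. Grpel1, the main nucleotide exchange factor, was counted 11449 times in the wild-type tissue and 9900 times in Ucp1-KO (log2 ratio 0.09, interval 0.03 to 0.15). Grpel2, its stress-associated paralog, had 1435 and 1932 (log2 ratio 0.73, interval 0.59 to 0.87, and 0.42 with total counts). Hscb, the J-protein of iron-sulfur cluster transfer, had 339 and 436 counts (log2 ratio 0.66, interval 0.37 to 0.96, and 0.36 with total counts), whereas Dnlz, which keeps mortalin soluble, had an interval that included 0 (0.07, interval -0.09 to 0.24). Relative to Grpel2, Hspa9 was lower by -0.58 (interval -0.72 to -0.44).

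Among 14 other mitochondrial chaperones and assembly factors, 3 were 1.5-fold higher and 1 was 1.5-fold lower (0 and 1 with total counts), and their median was 0.17 (-0.14 with total counts). This list also holds Grpel1, Grpel2, Hscb and Dnlz from above, and Grpel2 and Hscb are counted again among its 3 higher genes. Of all genes examined, 15.4% were 1.5-fold higher and 17.9% lower on the median-of-ratios scale. Clpb, the disaggregase of the intermembrane space, was the highest, with 5882 wild-type and 8333 Ucp1-KO counts (log2 ratio 0.80, interval 0.73 to 0.87, and 0.50 with total counts). Afg1l, an AAA protein of the inner membrane, was the lowest, with 6349 and 3084 counts (log2 ratio -0.74, interval -0.83 to -0.65). Among 16 other mitochondrial proteases and peptidases none was 1.5-fold higher or lower. Their median was 0.21 (-0.10 with total counts), from Htra2 of the intermembrane space at -0.04 to Lactb at 0.52 (interval 0.36 to 0.68). The import machinery, which delivers the clients of these chaperones, had 27 genes with a median of 0.23 (-0.07 with total counts), of which 2 were 1.5-fold higher (0 with total counts). Those were the receptor Tomm70a, with 6246 and 8472 counts, and the small chaperone Timm9, with 1989 and 2701, each at a log2 ratio of 0.74 (0.43 with total counts). On the median-of-ratios scale 18 import genes had an interval above 0 and 3 below. The lowest were Tomm7 (-0.26, interval -0.37 to -0.15) and Tomm6 (-0.17, interval -0.28 to -0.06).

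Some regulators of the mitochondrial stress response had larger log2 ratios than any of the 10 members. Of 12 genes on that list, 3 were 1.5-fold higher and none 1.5-fold lower, against 15.4% and 17.9% of all genes examined. The list was split, with 6 genes above 0 and 6 below, and its median was 0.05 (-0.26 with total counts). Atf4, the central transcription factor of the integrated stress response, had 3721 wild-type and 8375 Ucp1-KO counts (log2 ratio 1.47, interval 1.39 to 1.55). Ppp1r15a, the phosphatase subunit that ends that response, had 1044 and 1808 counts (log2 ratio 1.09, interval 0.93 to 1.25). Dele1, which relays mitochondrial stress to the cytosol, was at -0.23 (interval -0.35 to -0.12) and Cebpb at -0.19. Atf5, a factor linked to mitochondrial chaperone expression and named here after its value was seen, had 15898 and 12571 counts (log2 ratio -0.04). Of 11 genes of mitochondrial biogenesis, 3 were 1.5-fold higher (2 with total counts), beside the same 15.4% of all genes, and the median was 0.14 (-0.17 with total counts). Ppargc1a, a coactivator of mitochondrial genes, had 4105 and 12332 counts (log2 ratio 1.89), and the related Pprc1 had 759 and 1542 (log2 ratio 1.32). Of the 11 genes, 8 were above 0 and 3 below. The lowest were Sirt1 (-0.19, interval -0.35 to -0.04) and Gabpb1 (-0.09, interval -0.28 to 0.10).

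**Figure D5:**
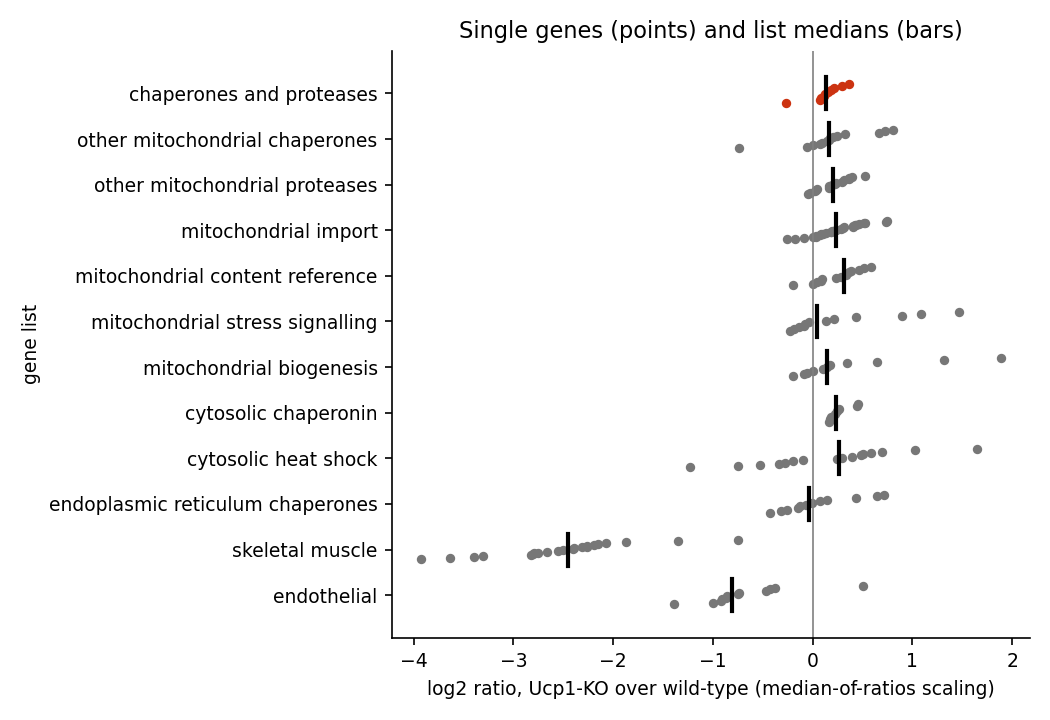
Log2 ratio of Ucp1-KO over wild-type (median-of-ratios scaling) for the single genes of each list (points) and the list medians (bars). The 10 chaperones and proteases span -0.27 to 0.36, while stress signalling reaches 1.47, biogenesis 1.89 and skeletal muscle markers have a median of -2.45.

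Some read assignments among the members are uncertain. By alignment to GRCm39, 92.2% of the canonical Hspd1 transcript and 69.25% of that of Hspe1 matched 3 other loci each at 95% identity or more, and 9.03% of Clpx lay in a repeat with 266 other loci. No such copy was found for the other 7. Exons of a gene on the opposite strand covered 14.5% of Hspe1 (alternative Hspd1 exons), 7.13% of Lonp1 (Rpl36, a ribosomal protein gene), 19.0% of Clpp (Gm33509), 15.6% and 4.81% of Hspa9 (Gm56488 and Gm56507), 4.84% of Spg7 (Gm35677) and 2.30% of Trap1 (Dnase1). The libraries were directional, but the strand setting of the counting is not given in the sources used here, so reads in those stretches cannot be told apart. Without Hspd1 and Hspe1 the member median kept its sign and the count past 1.5-fold was still 0.

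In the GENCODE annotation of GRCm39 the canonical transcripts of Hspd1 (12 exons, 2423 bases, minus strand) and Hspe1 (4 exons, 774 bases, plus strand) are neighbours. Hspa9 has 17 exons at chr18:35070467-35087750 on the minus strand, and Afg3l2 has 17 exons at chr18:67537834-67582291 on the minus strand. Trap1 (chr16:3857835-3895716, minus strand, 18 exons) and Dnaja3 (chr16:4501927-4525555, plus strand, 11 exons) lie near each other, as do Lonp1 (chr17:56921292-56933931, minus strand, 18 exons) and Clpp (chr17:57296971-57303369, plus strand, 6 exons). Clpx lies at chr9:65201542-65233987 (plus strand, 12 exons) and Spg7 at chr8:123791918-123825676 (plus strand, 17 exons). Lonp1 and Clpp were at log2 ratios of 0.36 and 0.08, and Trap1 and Dnaja3 at 0.18 and 0.08. An interval of the difference was computed for Lonp1 over Clpp only, as given above.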

How the data were processed

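Gene-level counts were made by the authors with featureCounts and deposited as whole numbers per gene, 1 table per library; the submitters' processing notes name Trim Galore, HISAT2 and the mm39 build. The annotation, the strand setting and the treatment of reads with several matches are not given in the sources used here. Counts of 1 to 10 were even for 70.7% (wild-type) and 73.4% (Ucp1-KO) of genes, so 2 counts were taken as 1 read pair for the intervals. Counts were divided by DESeq2 1.42.0 median-of-ratios size factors (1.11 for wild-type, 0.901 for Ucp1-KO, R 4.3.3), and log2 ratios used a pseudocount of 0.5 on genes with a mean normalized count of at least 10. The 95% intervals were exact Clopper-Pearson (SciPy 1.17.1, Python 3.11.15) for 1 gene and computed on the log scale from the 4 counts for ratios of genes. Copies of at least 100 bases and 95% identity were searched with BLAST+ 2.17.0. Transcript lengths were matched by symbol to GENCODE M39.

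The code was tested on simulated data. The members and gene lists were chosen with earlier results of these data known. Named genes were the 10 members, Ucp1, all homologs and mortalin co-chaperones, and from other lists genes among the top 2 and bottom 2 by log2 ratio, where the mean normalized count was 100 or more. Alternatives were edgeR 4.0.16 TMM factors, total counts with and without mitochondrially encoded genes and Ucp1, a pseudocount of 5, other count minimums and intervals on the deposited counts. Genes without a name held 0.156% and 0.121% of counts.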

Additional observations from a re-analysis of the deposited data

How the results depend on the processing

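With 1 library per genotype, leaving out a library was not possible. No paired analysis was possible because there is 1 library for each genotype. TMM factors, total counts without mitochondrially encoded genes and Ucp1, the larger pseudocount and the other count minimums changed no member's direction and no count of members past 1.5-fold or 2-fold. Among list medians, T and B cell markers went from 0.09 to -0.62 without a count minimum. Among list counts 1.5-fold higher, TMM took cytosolic heat shock genes from 4 to 3 and the reference list from 1 to 0. Plain total counts moved the median of all genes to -0.31 and turned the sign of the following. The member median became -0.17, and members beyond counting error went from 8 to 0 higher and from 1 to 8 lower. Single members became -0.20 (Hspd1), -0.16 (Hspa9), -0.23 (Dnaja3), -0.13 (Trap1), -0.23 (Clpp), -0.012 (Clpx), -0.088 (Afg3l2) and -0.18 (Spg7). List medians became -0.20 for the member chaperones, -0.088 for the member proteases, -0.12 for ClpXP, -0.13 for the m-AAA genes, -0.19 for mtHsp70 and co-chaperones, -0.14 and -0.10 for other mitochondrial chaperones and proteases, -0.073 for import, -0.074 for the cytosolic chaperonin, -0.038 for cytosolic heat shock genes, -0.074 for homologs, -0.26 for stress signalling, -0.17 for biogenesis and -0.055, -0.19 and -0.21 for brown adipocyte, macrophage and T and B cell markers. On deposited counts rather than read pairs, the intervals of Clpp and of Afg3l2 over Spg7 (0.093, interval 0.02 to 0.16) no longer included 0, nor did those of Lonp1 over Lonp2 (-0.15 to -0.02) and Lonp1 over Clpx (0.0070 to 0.13), which left 2 of 11 homolog and 6 of 9 neighbouring pairs with intervals over 0. The alternatives with abundant genes only, the reference list, exon lengths, list counts by scaling, markers without Ucp1, deposited-count intervals of homolog and neighbouring pairs, and without Hspd1 and Hspe1 were chosen after seeing the data. Depth limits Clpp most, and animal-to-animal spread is unknown for all values.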

Other observations

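Among chaperone systems outside mitochondria, the 8 subunits of the cytosolic chaperonin, which folds actin and tubulin, lay between 0.16 (Cct7) and 0.46 (Cct4), with a median log2 ratio of 0.23 (-0.07 with total counts). The 16 cytosolic heat shock genes had a median of 0.27 (-0.04 with total counts) and split, 4 being 1.5-fold or more higher and 2 being 1.5-fold or more lower in Ucp1-KO (2 and 4 with total counts). Of all genes examined, 15.4% were 1.5-fold higher and 17.9% lower on the median-of-ratios scale. Hspa1b, the stress-inducible Hsp70, had 270 wild-type and 688 Ucp1-KO counts (log2 ratio 1.65, interval 1.36 to 1.95). The small heat shock gene Hspb1 had 12927 and 4483 counts (log2 ratio -1.23), and Hsph1, an Hsp110, had 9353 and 4513 (log2 ratio -0.75). Hspb1 is also abundant in muscle, and muscle markers were lower in the same library, but the part of muscle in its level was not tested. The 12 chaperones of the endoplasmic reticulum had a median of -0.04 (-0.34 with total counts), from Pdia4, a disulfide isomerase, at -0.43 to the J-protein Dnajb9 at 0.72.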
